A study of Homo sapiens with 8 samples.

Results

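Nonsense-mediated decay (NMD) destroys mRNAs on which the ribosome stops at a premature stop codon, and it also trims the levels of many normal mRNAs. The helicase UPF1 is the core of the machinery. UPF2 and the paralogs UPF3A and UPF3B link UPF1 to exon junction complexes left on spliced mRNA, the kinase SMG1 with its regulator SMG9 phosphorylates UPF1, and phosphorylated UPF1 recruits the endonuclease SMG6 and the adaptor SMG5. These 8 genes were taken by symbol from the splicing tables, out of 12067 genes that hold at least 1 event there. The genes were named with earlier results of these data known, while the rule itself takes no measured value.

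The cells were U2OS, a human osteosarcoma line. All libraries came from cells transfected with 20 nM siRNA for 48 h. The control siRNA was directed against EGFP, and the other, CHERP#2, against CHERP, a nuclear protein that binds splicing factors. Only 1 CHERP siRNA was sequenced, so effects of this sequence that do not pass through CHERP cannot be told apart from those of CHERP loss. Stranded mRNA libraries were made from whole cells and from a detergent extract of the cytoplasm, giving 4 groups of 2 libraries. The methods call the 2 libraries of a group biological replicates and do not describe their cultures, so p-values measure the spread between these libraries. In the quasi-binomial tests of splicing events this spread was pooled over all events of a type along their mean reads. An event's own spread did not enter those tests.

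Reads summed over all events ranged from 29409956 to 35664568 per whole-cell library and from 5370756 to 6580099 per cytoplasmic library. In whole cells CHERP itself, the siRNA target, had abundance values of 0.545 and 0.335 in the controls and of 0.0123 and 0.0616 after CHERP siRNA. Its log2 fold change was −3.45 (SE 0.57, limma, adjusted p = 0.00139). In the cytoplasm CHERP was under the read minimum, with 31 and 21 reads against 3 and 4. Of the lineage markers of U2OS, VIM and FN1 had reads in all 8 libraries, CDH2 had 87 and 142 whole-cell reads in the controls, 166 and 176 after CHERP siRNA and no cytoplasmic event, RUNX2 had 16 to 20 reads per EGFP siRNA library and 0 to 6 per CHERP siRNA library, and COL1A1, COL1A2 and SPARC had no event. Among epithelial, blood and hepatocyte markers CDH1 alone had events, with 1 to 2 reads per EGFP siRNA library and 8 to 22 per CHERP siRNA library. The part of these marker differences in the results was not tested.

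The tables hold 124 whole-cell and 26 cytoplasmic events of the 8 genes. UPF3A had 52 whole-cell events, UPF2 had 20, SMG1 had 18, SMG5 had 11, UPF3B had 8, SMG6 had 7, SMG9 had 5 and UPF1 had 3. Of the 124, 92 were skipped exons (SE), 27 were pairs of exons listed as alternatives to each other (MXE) and 1 was a retained intron (RI). Transcripts that hold both exons of such a pair can give reads to either form. Another 2 were choices of the 5′ splice site (A5SS) and 2 of the 3′ splice site (A3SS). Events of a gene overlap and share reads, so they are not independent measurements.

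A few segments of these genes are listed with alternative forms, not all of them used to a clear extent here. Their sequences on GRCh37, the assembly called hg19 by the authors, show what each inclusion level refers to. The first is exon 4 of UPF3A (of 10 exons in transcript UPF3A-202), which is coding, has 99 bases and lies at chr13:115051777-115051875 on the plus strand. A weak upstream 3′ splice site adds 43 bases in front of it. The second is a 33-base coding segment of UPF1 at chr19:18963881-18963913, plus strand, between a pair of alternative 5′ splice sites. It lengthens a loop of the helicase core. The third is the 39-base coding exon 8 of UPF3B at chrX:118974609-118974647, minus strand. In the splice site lines the capitals mark the terminal bases of the intron.
UPF3A exon 4: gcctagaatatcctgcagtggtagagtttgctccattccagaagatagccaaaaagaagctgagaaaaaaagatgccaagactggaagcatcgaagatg
UPF3A 43-base extension: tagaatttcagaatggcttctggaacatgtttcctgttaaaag
UPF3A exon 4, 3′ splice site: aacatgtttcctgttaaaAGgcc
UPF3A extension, 3′ splice site: attttccgaaatgaatgtAGtag
UPF3A exon 4, 5′ splice site: atgGTgagc
UPF1 33-base segment: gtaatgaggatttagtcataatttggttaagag
UPF1 upstream 5′ splice site: ctgGTaatg
UPF1 downstream 5′ splice site: gagGTgatt
UPF3B exon 8: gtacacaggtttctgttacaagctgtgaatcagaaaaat
UPF3B exon 8, 3′ splice site: ttgttttccactgtcttcAGgta

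The strength of each splice site was scored as the log odds of its bases at their frequencies in the 48505 distinct skipped exons of the whole-cell table, over 23 bases for 3′ sites and 9 bases for 5′ sites. The 3′ site of UPF3A exon 4 scored 4.94, at the 13.2 percentile of these exons, and the site of the 43-base extension scored 0.07, at the 1.6 percentile. The 5′ site of exon 4 was close to the middle, at the 42.8 percentile. For UPF1, the upstream 5′ site scored 6.18 and the downstream site 7.77, at the 23.7 and 46.3 percentiles. The 3′ site of UPF3B exon 8 scored 12.17, at the 78.1 percentile. With 99 bases UPF3A exon 4 keeps the reading frame, and 1 protein-coding transcript in GENCODE skips it. The form with the extension has 142 bases and shifts the frame, and in UPF3A-202 the first stop codon would then lie across the junction with the next exon.

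The first comparison asked which decay factors changed in RNA abundance after CHERP siRNA in whole cells. A gene's abundance value was its reads per base of effective length, summed over its SE, A5SS and A3SS events and scaled between libraries. It depends on how many events a gene has and cannot be set against that of another gene. Event counts given with abundance cover only these event types. Events of a gene share reads, so such counts add no independent support to its call. The share of all events whose siRNA groups did not overlap was not computed, and for gene values it was 70.1% of all genes tested. In bulk RNA, fewer expressing cells and less RNA per cell cannot be told apart. UPF2, UPF3A, UPF3B and SMG9 fell and SMG5 rose at an adjusted p under 0.05 (limma), while UPF1, SMG1 and SMG6 did not pass. Of all 9660 genes tested, 17.7% fell and 19.0% rose by this test, and the 5 of 8 called here stand against 36.7% called in either direction.

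UPF3B, the paralog with the stronger role in NMD, had the largest fall of the 8. Its abundance values were 2.82 and 3.77 in the controls and 1.09 and 0.953 after CHERP siRNA. Both CHERP siRNA libraries lay far under both controls, at 0.309 of the control mean. The log2 fold change was −1.67 (SE 0.19, adjusted p = 1.48e-04). All 6 SE, A5SS and A3SS events with at least 20 mean reads were lower in both CHERP siRNA libraries than in either control. The falls were 1.55 to 2.34 on the log2 scale.

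UPF2, the bridge between UPF1 and the UPF3 proteins, had abundance values of 15.9 and 17.3 in the controls and of 8.28 and 8.98 after CHERP siRNA. The groups did not overlap, and the log2 fold change was −0.94 (SE 0.11, adjusted p = 2.11e-04). It had 2995 to 6257 reads per library. All 14 of its SE, A5SS and A3SS events with at least 20 mean reads were lower in both CHERP siRNA libraries.

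UPF3A, whose protein can stand in for UPF3B, was at 11.6 and 13.1 in the controls and at 8.33 and 8.65 after CHERP siRNA. The log2 fold change was −0.53 (SE 0.11, adjusted p = 0.00546). The call was lost without the first CHERP siRNA library (adjusted p = 0.0822) and with the event of most reads alone (adjusted p = 0.0560). It had 27 SE, A5SS and A3SS events with at least 20 mean reads. In 21 of them both CHERP siRNA libraries lay below both controls, and in none above. Without the events that hold exon 4, an alternative added after the values were seen, the log2 fold change was −0.45 in whole cells (adjusted p = 0.0123) and −0.70 in the cytoplasm (adjusted p = 0.0162).

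SMG9, the regulatory partner of SMG1, was at 2.32 and 2.82 in the controls and at 1.59 and 1.39 after CHERP siRNA. It fell by 0.78 on the log2 scale (SE 0.17, adjusted p = 0.00590). Without the second CHERP siRNA library the fold change was −0.68 and the adjusted p 0.0578.

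SMG5, the adaptor that links phosphorylated UPF1 to deadenylation and decapping, moved the other way. Its values were 10.9 and 9.74 in the controls and 13.2 and 13.7 after CHERP siRNA, with no overlap. The rise was 0.39 on the log2 scale (SE 0.11, limma, adjusted p = 0.0218). All 9 of its SE, A5SS and A3SS events were higher in both CHERP siRNA libraries. The call was lost without either CHERP siRNA library, at an adjusted p of 0.169 without the first and of 0.255 without the second, and with the event of most reads alone (adjusted p = 0.0513).

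UPF1 values were 0.968 and 0.937 in the controls and 0.982 and 0.916 after CHERP siRNA, so the groups overlapped. The log2 fold change was −0.01, with a 95% interval from −0.43 to 0.41, which rests on 2 events and 132 to 152 reads per library. SMG1 values were 6.15 and 6.56 against 6.42 and 6.57, a log2 fold change of 0.03 with an interval from −0.23 to 0.29. The interval of SMG1 is narrow, but GENCODE names 7 pseudogenes of SMG1 and 3 of UPF3A, and reads of near-identical copies may be split among them. The endonuclease SMG6 was at 1.50 and 1.30 against 1.85 and 1.78. Its groups did not overlap, as in 70.1% of all genes tested, and the log2 fold change of 0.37 (SE 0.17) missed the threshold, at an adjusted p of 0.106.

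**Figure D1:**
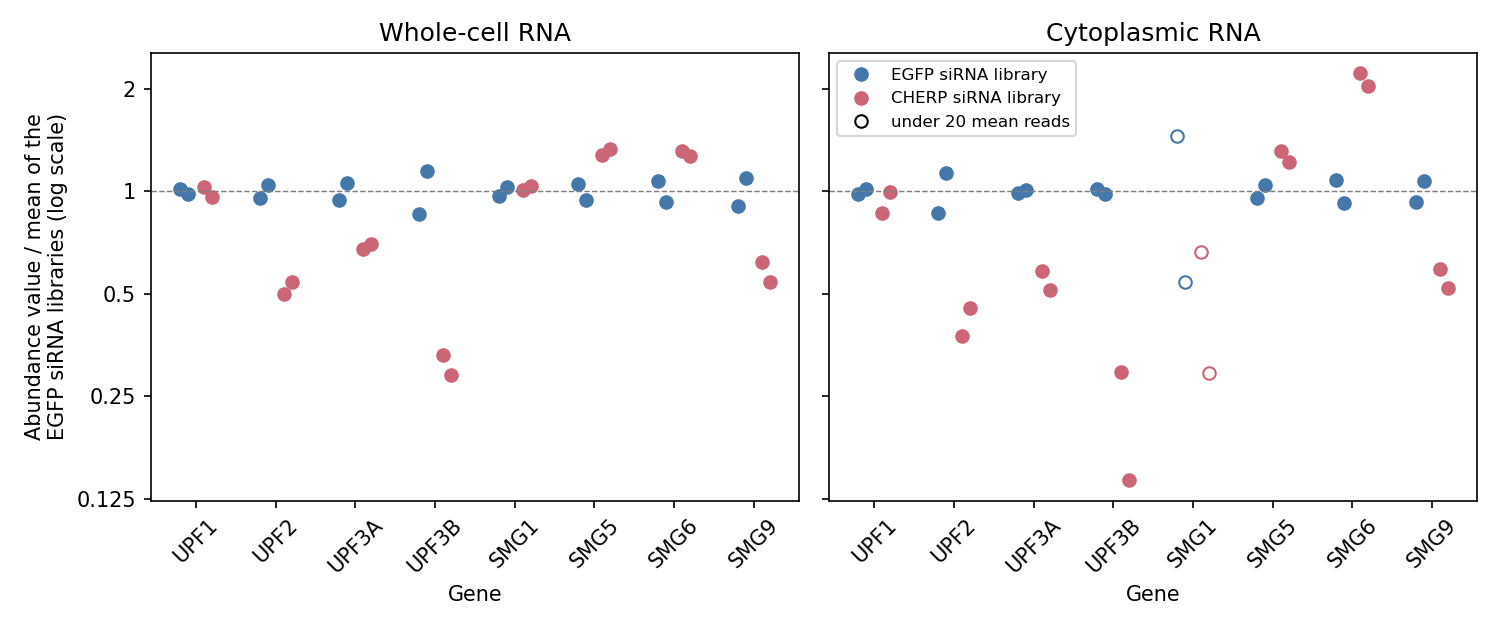
Abundance value of each decay factor in each library, divided by the mean of the EGFP siRNA libraries of the same fraction, on a log axis; blue points are EGFP and red points CHERP siRNA libraries, and open points are a gene with fewer than 20 mean reads. The red points of UPF2, UPF3A, UPF3B and SMG9 lie below the blue points in both fractions, those of SMG5 and SMG6 lie above, and those of UPF1 lie among or beside the blue points.

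In the cytoplasm the same question was put to 7 of the 8 genes, since SMG1, with 15 and 6 reads in the controls and 8 and 3 after CHERP siRNA, was under the read minimum. Without that minimum its log2 fold change was −0.86 (SE 0.55, adjusted p = 0.244). UPF2, UPF3A, UPF3B and SMG9 fell, and SMG5 and SMG6 rose. This is 6 of 7 tested, in a fraction where 48.3% of 7293 genes were called, 22.5% lower and 25.8% higher. UPF1 did not pass.

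For UPF3B the cytoplasmic values were 0.399 and 0.386 in the controls and 0.116 and 0.0555 after CHERP siRNA. The log2 fold change was −2.15 (SE 0.34, adjusted p = 3.07e-04), from 45 and 42 reads against 10 and 8, and it was −1.43 with a pseudocount of 0.1. The cytoplasmic level of UPF2 went from 1.06 and 1.39 to 0.463 and 0.558, a log2 fold change of −1.24 (SE 0.19, adjusted p = 2.58e-04). For each of these genes both CHERP siRNA libraries lay below both controls.

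UPF3A was at 0.643 and 0.659 in the control cytoplasm and at 0.380 and 0.333 after CHERP siRNA, with a log2 fold change of −0.85 (SE 0.20, limma, adjusted p = 0.00458). It had 119 and 114 reads against 74 and 62, and only 1 of its events there had at least 20 mean reads. SMG9 was at 1.08 and 1.24 against 0.681 and 0.600, with a log2 fold change of −0.84 (SE 0.17, adjusted p = 0.00158). Neither gene's groups overlapped, which held for 75.1% of all cytoplasmic genes tested.

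Among the factors that rose, SMG6 was at 0.0854 and 0.0732 in the controls and at 0.176 and 0.162 after CHERP siRNA. Its log2 fold change was 1.00 (SE 0.31, adjusted p = 0.0197), and 0.58 with a pseudocount of 0.1. It rests on a single exon with 24 and 21 reads against 53 and 40, and the call was lost without the second control library (adjusted p = 0.0854) or without either CHERP siRNA library (adjusted p = 0.102 and 0.0557). SMG5 was at 2.11 and 2.30 against 2.90 and 2.69, with a log2 fold change of 0.34 (SE 0.11, adjusted p = 0.0229), lost without the first library of either siRNA (adjusted p = 0.101 and 0.114) and under scaling by the total (adjusted p = 0.113). UPF1 was at 1.15 and 1.20 against 1.01 and 1.17. Its log2 fold change of −0.11 had an interval from −0.43 to 0.21.

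The authors deposited mean normalized counts for 6757 cytoplasmic genes past their threshold, in a pair of columns whose header does not name the siRNA. They are given here as the column in which CHERP is low (209) and the column in which it is high (1685). UPF3B stood at 97.1 and 331 in these columns, UPF2 at 1020 and 2252, UPF3A at 758 and 1214, and SMG9 at 1186 and 1960. SMG5 was at 6829 and 4688 and SMG6 at 1507 and 1114. SMG1 was at 2358 and 2855, while UPF1 was not listed. These are the authors' means, without a spread.

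Whether the fractions responded differently was tested by the interaction of siRNA and fraction for 7 factors. None passed at an adjusted p under 0.05 (limma), and none did among all 7059 genes tested (0%). At an unadjusted p under 0.05 none of the 7 passed either, where 4.93% of all genes did. The largest difference was in SMG6, with 0.63 more in the cytoplasm on the log2 scale (SE 0.30, unadjusted p = 0.0623). The lowest was UPF3B at −0.48 (SE 0.41, unadjusted p = 0.269), which turned to 0.16 with a pseudocount of 0.1. Without the first cytoplasmic CHERP siRNA library it was −0.95, and without the second −0.01. The difference in SMG6 was 0.23 with a pseudocount of 0.1. With these errors, differences of about this size between the fractions were not detectable.

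**Figure D2:**
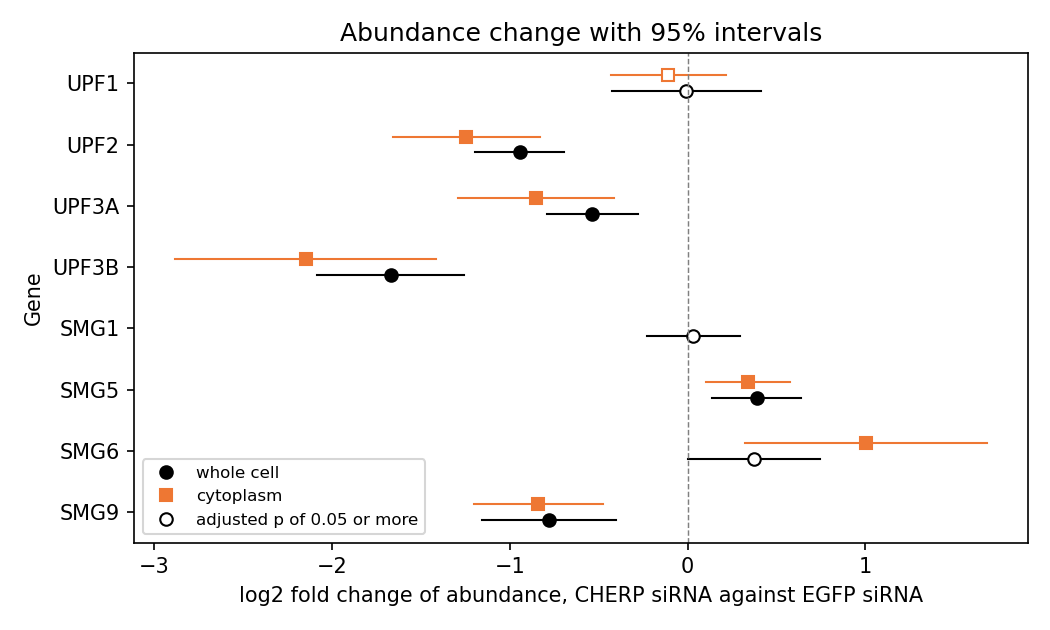
Log2 fold change of abundance, CHERP siRNA against EGFP siRNA, with 95% intervals from limma, for each decay factor in whole cells (black circles) and the cytoplasm (orange squares); filled symbols have an adjusted p under 0.05. SMG1 was under the read minimum in the cytoplasm and has no interval there. For every other gene the intervals of both fractions overlap. UPF3B lies farthest to the left at −1.67 and −2.15, and the interval of UPF1 spans 0 in both fractions.

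The other genes of the pathway were described from lists chosen with earlier results of these data known. Of 12 further NMD genes, 10 were tested in whole cells. GSPT1, the release factor eRF3a, rose by 1.30 on the log2 scale (SE 0.10, adjusted p = 1.65e-05). PNRC2, a decapping co-factor, fell by 0.73, MOV10, an RNA helicase that binds UPF1, by 0.65, and RUVBL1, an ATPase that acts with the SMG1 complex, by 0.61. The other 6 did not pass, and 36.7% of all genes tested in whole cells were called in either direction. The median of the 10 was −0.08, against −0.27 for the 8 decay factors and 0.02 for all genes tested. In the cytoplasm 8 were tested, of which GSPT1 (log2 fold change 1.26) and RUVBL2 (0.27) rose and MOV10 (−0.85) and RUVBL1 (−0.75) fell. Of all cytoplasmic genes tested, 48.3% were called in either direction. The median of the 8 was −0.12, against −0.84 for the 7 decay factors tested and 0.01 for all genes.

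Of the exon junction complex, which marks spliced junctions for UPF2 and UPF3B, 9 genes were tested in whole cells, and ACIN1 alone fell (log2 fold change −0.58, adjusted p = 0.00285). The core members EIF4A3, MAGOH, MAGOHB, RBM8A and CASC3 lay between −0.16 and 0.15 and did not pass. In the cytoplasm ACIN1 (−0.70) and RNPS1 (−0.23) fell among 8. Of all genes tested, 17.7% fell in whole cells and 22.5% in the cytoplasm. No gene of the complex rose in either fraction, beside 19.0% and 25.8% of all genes. The medians of the complex genes were 0.05 and −0.11.

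The list for mRNA degradation after NMD holds enzymes, scaffolds and complex subunits. It gave 4 lower and 0 higher of 12 tested in whole cells, beside 17.7% lower and 19.0% higher among all genes. DCP2, the decapping enzyme, fell by 1.16 on the log2 scale (adjusted p = 0.00113), and DIS3, a nuclease of the exosome, by 1.04 (adjusted p = 0.00264). The exosome nuclease EXOSC10 fell by 0.37 and the decapping scaffold EDC4 by 0.47. In the cytoplasm 6 of 11 were lower, beside 22.5% of all genes, with DCP2 at −1.51 and DIS3 at −1.36. The deadenylase subunit CNOT2 was higher at 0.48, beside 25.8% higher among all genes. The medians of the genes in this list were −0.25 and −0.54.

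Transcripts known to be targets of NMD were higher in 5 of 10 in whole cells and in 7 of 9 in the cytoplasm, beside 19.0% and 25.8% of all genes tested, and lower in 0. The medians were 0.48 and 0.77 on the log2 scale. GAS5 and ZFAS1, noncoding hosts of small nucleolar RNAs whose short reading frames make them NMD targets, rose by 0.70 and 0.74 in whole cells and by 1.09 and 0.77 in the cytoplasm. CDKN1A rose by 1.21 in whole cells and 1.50 in the cytoplasm, ATF3 by 1.29 and 1.09, and GADD45A by 0.96 and 1.21. These 3 are also stress response genes, as are ATF4, DDIT3 and GADD45B of the same list. What raised the transcripts that rose was not tested. The first whole-cell control was above the second for GADD45A (1.22 and 0.549), CDKN1A (3.36 and 1.71) and GADD45B (0.672 and 0.329). ATF4 and UPP1 rose in the cytoplasm by 0.51 and 0.41. GADD45B had a whole-cell log2 fold change of −0.61 (SE 0.35) and did not pass, and in the cytoplasm it was under the read minimum. DDIT3, NAT9 and TBL2 did not pass or were not tested in either fraction.

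The next comparison asked whether CHERP siRNA changed the splicing of the decay factors themselves. Of 124 whole-cell events none passed a false discovery rate (FDR) of 0.05 in a quasi-binomial test of inclusion against skipping reads, while 1.12% of all 89379 events did. At an unadjusted p under 0.05 there were 7 of 124, where 6.51% of all events reached it. limma on log2 odds called none of all 89379 events at an FDR of 0.05 (0%), and at an unadjusted p under 0.05 it gave 8 of 124, beside 8.34% of all events. Of the 7 events, 6 belonged to UPF3A and 1 to SMG5.

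Most exons of these genes were included nearly always. Among the 82 skipped exon events with at least 20 mean reads in whole cells, 74 had a mean inclusion level of at least 0.9 with both siRNAs. An inclusion level gives the fraction of transcripts with the segment, taken from reads per effective length. The exceptions were events on exons 3, 4 and 5 of UPF3A, exon 8 of UPF3B with an overlapping longer form, and an 80-base exon of UPF1.

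**Figure D3:**
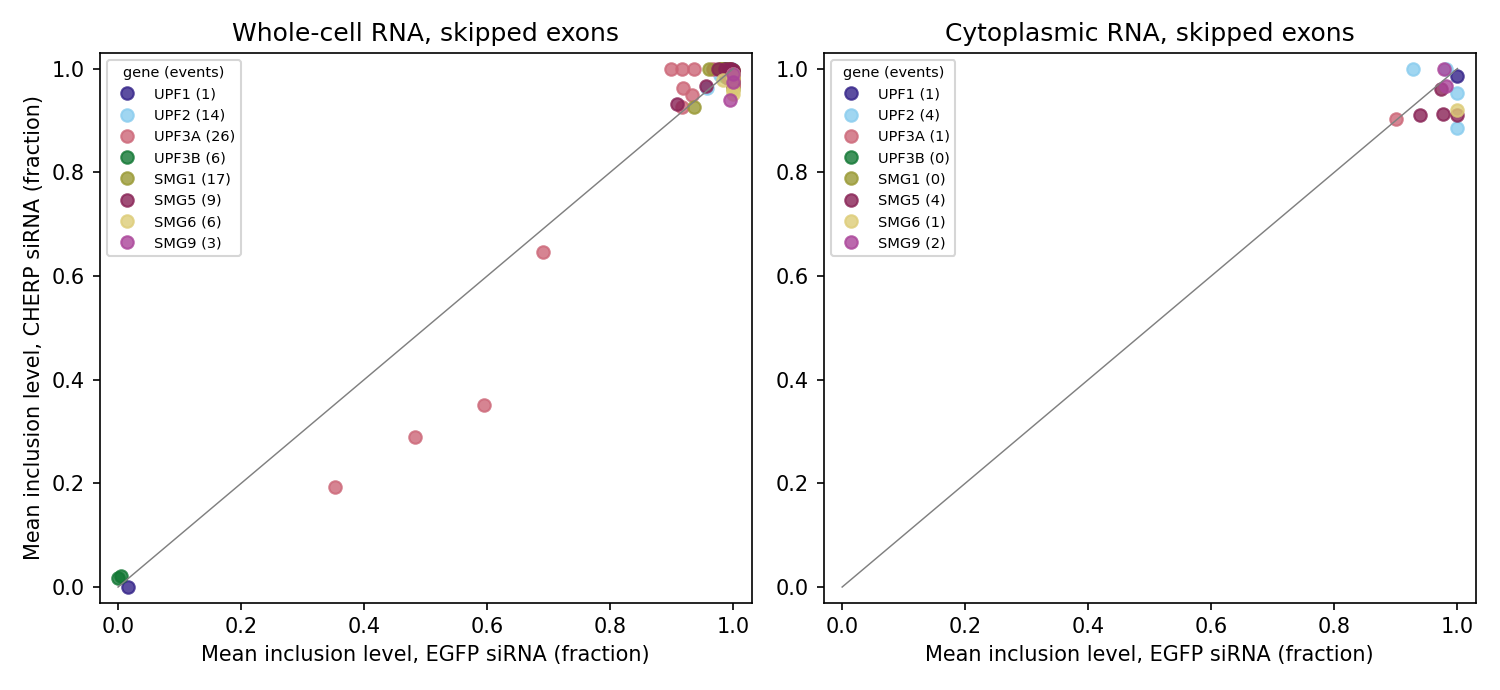
Mean inclusion level of each skipped exon event with at least 20 mean reads, EGFP siRNA on the horizontal and CHERP siRNA on the vertical axis, coloured by gene, with the number of events in brackets; the grey line marks equal levels. Of the 82 whole-cell events, 74 lie in the upper right corner at 0.9 or more on both axes, and 3 UPF3A events that hold exon 4 lie below the line.

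The event of UPF3A with the smallest p was exon 3 against exon 4 as mutually exclusive exons. Both exons are in UPF3A-202, and transcripts that hold both can give reads to either form. The values are therefore shares of reads per effective length and do not show that exon 3 replaced exon 4. The share of the exon 3 form was 0.576 and 0.628 in the controls and 0.762 and 0.783 after CHERP siRNA. Its odds were 2.22 times higher (95% interval 1.32 to 3.75, unadjusted p = 0.00217), and the FDR was 0.0985. Looked at as a skipped exon between exons 3 and 5, a view chosen after the values were seen, exon 4 was included at 0.529 and 0.437 in the controls and at 0.306 and 0.271 after CHERP siRNA. Both CHERP siRNA libraries lay below both controls, but the share of all events without overlap was not computed. The inclusion reads were 91 and 118 against 41 and 37, and the skipping reads 48 and 90 against 55 and 59. The odds ratio was 0.452 (95% interval 0.253 to 0.805) and the FDR 0.332, so this difference did not pass. By limma on log2 odds its unadjusted p was 0.247. The same test gave an unadjusted p of 0.00855 and an FDR of 0.408 for exon 3 against exon 4.

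The form of UPF3A exon 4 with the 43-base extension gave 0.409 and 0.296 in the controls and 0.186 and 0.198 after CHERP siRNA, at an FDR of 0.576. It shares the reads on the 99 bases and the skipping reads with the shorter form, so its level is not the share of transcripts with the extension. Where exon 4 was joined, the extension was used in 0.241 and 0.153 of transcripts in the controls and in 0.176 and 0.322 after CHERP siRNA, and the groups overlapped. In the cytoplasm only the choice of the extension was listed, with 5 and 6 reads on the shorter form against 1 and 1, too few to compare.

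For UPF1, the 33-base segment was included at 0.126 and 0.195 in the controls and at 0.115 and 0.256 after CHERP siRNA in whole cells, an odds ratio of 1.08 with an interval from 0.489 to 2.38. In the cytoplasm it was at 0.110 and 0.108 against 0.147 and 0.127, an odds ratio of 1.29 with an interval from 0.535 to 3.12. The groups overlapped in whole cells, and most UPF1 mRNA used the upstream 5′ site, the lower of the pair by score, in every library.

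The single retained intron event of the 8 genes was a 110-base UPF1 intron at chr19:18976260-18976369. It had 0 and 1 inclusion reads against 64 and 50 skipping reads in the controls, and 2 and 0 against 66 and 62 after CHERP siRNA. Its inclusion levels were 0, 0.0112, 0.0169 and 0, with no difference detectable at this depth (unadjusted p = 0.755). Its splice sites, shown for a spliced intron, were cagGTgagc at the 5′ end (78.3 percentile) and cctggactgctgtctttcAGggc at the 3′ end (23.4 percentile). An 80-base UPF1 exon at chr19:18961859-18961938, found in a GENCODE transcript labelled as an NMD target, had 2 and 1 inclusion reads in the controls and 0 and 0 after CHERP siRNA, with 50 to 62 skipping reads.

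UPF3B exon 8 was nearly always skipped, although the canonical transcript UPF3B-201 holds it. It had 1 and 0 inclusion reads against 90 and 149 skipping reads in the controls, and 0 and 2 against 43 and 35 after CHERP siRNA. Inclusion levels lay between 0 and 0.0430 in whole cells and between 0 and 0.0349 in the cytoplasm. A 91-base longer form was likewise at 0 in 3 whole-cell libraries and at 0.0338 in the second CHERP siRNA library.

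**Figure D4:**
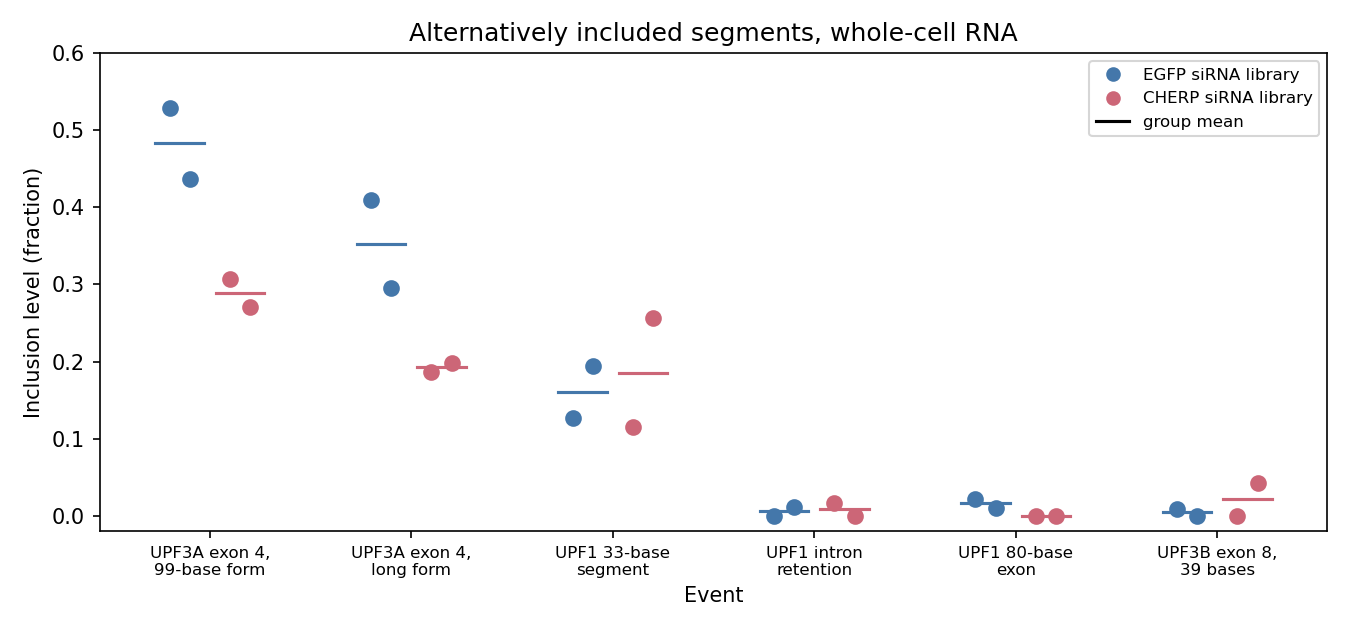
Inclusion level in each whole-cell library of 6 segments of UPF3A, UPF1 and UPF3B listed with alternative forms. EGFP siRNA libraries are in blue, CHERP siRNA libraries in red and group means are bars. Exon 4 of UPF3A is lower in both CHERP siRNA libraries, at 0.306 and 0.271 against 0.529 and 0.437. The event of the long form with the extension is at 0.186 and 0.198 against 0.409 and 0.296. It shares the reads on the 99 bases and the skipping reads with the shorter form, so its level is not the share of transcripts with the extension. The UPF1 segment overlaps between the groups, and the UPF1 intron, the 80-base UPF1 exon and UPF3B exon 8 are close to 0.

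For SMG5, SMG9, SMG1 and UPF2 the whole-cell event with the smallest p was an exon near full inclusion. SMG5 exon 7, a coding exon of 79 bases, was at 0.986 and 0.964 in the controls and at 1.00 and 0.996 after CHERP siRNA, from 3 and 9 skipping reads against 0 and 1 (unadjusted p = 0.0176, FDR = 0.580). SMG9 exon 6 was at 0.990 and 1.00 against 1.00 and 0.878, where 6 skipping reads of the second CHERP siRNA library made the difference. SMG1 exon 39 had 5 skipping reads in the second control and 0 in the others, and UPF2 exon 4 had 3 in the second CHERP siRNA library and 0 in the others. The differences in SMG9, SMG1 and UPF2 each rest on 1 library. For UPF3B and SMG6 it was an MXE pair. The read share of UPF3B exon 4 against exon 5 was 0.348 and 0.416 in the controls against 0.296 and 0.184 (FDR = 0.639). That of SMG6 exon 13 against exon 14 was 0.331 and 0.520 against 0.413 and 0.260 (FDR = 0.667), with overlap. The canonical transcript holds both exons of each pair, so these shares do not show that they replace each other. For UPF1 the 80-base exon had the smallest p, 0.218.

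In the cytoplasm none of the 26 events passed, where 0.416% of all 43559 events did, and the lowest FDR was 0.720. At an unadjusted p under 0.05 there were 0 by the quasi-binomial test, beside 4.24% of all events, and 1 by limma, beside 8.30%. Of the 13 skipped exon events with at least 20 mean reads, 12 had a mean inclusion of at least 0.9 with both siRNAs. For the 21 events listed in both fractions the interaction of siRNA and fraction gave 0 calls at an FDR of 0.05, beside 0.0327% of 33604 events, and 0 at an unadjusted p under 0.05, beside 3.26%. limma on log2 odds gave 0 of the 21 at an unadjusted p under 0.05, beside 5.89% of all events, and at an FDR of 0.05 it called none of all events in the cytoplasm or for the interaction.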

How the data were processed

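RNA-seq of U2OS cells was analysed from 10 splicing tables and 1 expression table. Per the labels, reads were mapped to hg19 with STAR 2.5.2b and genes quantified with RSEM 1.2.25. The authors ran rMATS, whose version is not given in the sources used here, and deposited for each event the counts of inclusion and skipping reads per library, joined 2 to a cell, with the effective length of each form. Because of this joining the cells were treated as another kind of value, and no count model for genes was run. The authors deposited EBSeq means as a signal of normalized counts. Their p-values, FDR, fold ratios and posterior probabilities were not used, nor were 20 columns with the authors' inclusion levels, since these were computed anew from the reads.

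Events were tested by a quasi-binomial model with the dispersion moderated by limma 3.58.1 (R 4.3.3) along the mean reads, with Benjamini-Hochberg adjustment within the event type over all events. The prior degrees of freedom were infinite, so an event's own spread had no weight. Odds ratio intervals use that dispersion and a normal approximation, at 95%. For abundance, limma was run on log2(value + 0.01), after scaling by median ratios, in genes with at least 20 mean reads, with adjustment over all genes. Fold changes on this scale understate the change of low genes. The tests were run on simulated data first. In MXE events the inclusion form held the first listed exon on the plus strand and the second on the minus strand, as the deposited form lengths show.

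The 8 genes and the lists were chosen with earlier results of these data known. Named events are those past the threshold in any test, otherwise each gene's event of smallest p among those with at least 20 mean reads in whole cells, and every retained intron. Gene parts are from GENCODE 44 lifted to GRCh37, whereas the authors used GENCODE 19. Alternatives were another test or dispersion, a read minimum, the pseudocount, the scaling, other sets of events and leaving out each library.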

Additional observations from a re-analysis of the deposited data

How the results depend on the processing

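No event of the 8 genes was called under any alternative in whole cells, in the cytoplasm or for the interaction of siRNA and fraction. This says little of stability where few events were called at all, since limma on log2 odds called 0 of all events in each of the 3 comparisons, and the other alternatives for the interaction called 3 to 21 of all events. No decay factor was called for the interaction in abundance under any alternative. The count of factors called was 4 to 5 in whole cells under the other settings and 3 to 6 with each library left out, and 5 to 6 and 4 to 5 in the cytoplasm. It was 3 without the first and 3 without the second CHERP siRNA library in whole cells. UPF2 and UPF3B kept their calls under every alternative that gave a value for them, in both fractions, and SMG9 and UPF3A did in the cytoplasm.

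With the event of most reads alone, UPF3A (−0.47, adjusted p = 0.0560) and SMG5 (0.41, adjusted p = 0.0513) lost their whole-cell calls, and SMG6 (0.77, adjusted p = 0.0377) gained one. UPF3A also lost it without the first CHERP siRNA library (−0.51, adjusted p = 0.0822). SMG6 passed without the first whole-cell control (0.47, adjusted p = 0.0211). The cause was not tested. Scaling by the total moved the median of all genes from 0.02 to −0.04 in whole cells and from 0.01 to −0.10 in the cytoplasm, and the share of calls that were higher from 53.5% to 40.2% in the cytoplasm. Direction turned only in results close to 0 or not called. SMG1 in whole cells was −0.0194 under scaling by the total, −0.0023 with the event of most reads and −0.0135 without the first control, over a range of −0.0135 to 0.0787 with each library left out. UPF1 in whole cells was 0.0862 with the event of most reads, 0.0169 without the first control and 0.0444 without the second CHERP siRNA library, over −0.0559 to 0.0444, and in the cytoplasm 0.10 with the event of most reads and 0.10 from SE events alone. The interaction of UPF3B was 0.16 with a pseudocount of 0.1. The inclusion difference of the UPF1 intron ran from −0.0056 to 0.011 with each library left out, at −0.0028 without the first control, that of SMG9 exon 6 from −0.12 to 0.0051, and that of SMG6 exon 13 from −0.18 to 0.0058.

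No paired analysis was possible because the cells of the tables carry no replicate numbers. With 132 to 152 reads per whole-cell library UPF1 is measured least firmly of the factors tested there. In the cytoplasm UPF3B and SMG6 rest on fewer than 100 reads per library, and UPF3A had 74 and 62 in the CHERP siRNA libraries.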
